A study of Homo sapiens with 8 samples.

Results

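The genes described here are 60 neighbours on human chromosome 15, listed in order from CHST14 to MYO1E across the bands 15q15 to 15q22. They were taken by name from a list drawn up with the difference between resistant and sensitive cells in these same arrays already known, so their changes are given as a description and not as a test of the stretch. Of the 60 genes, 59 had a named probe set among the 19775 genes measured. SORD, which encodes sorbitol dehydrogenase, was not analysed here. In the gene order of the RefSeq table of assembly GRCh38.p14 all 59 lie on chromosome 15 in the order of the list.

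RNA of H460, an established line from a human lung carcinoma of the non-small-cell type, was hybridised to 8 expression arrays. H460R, with 4 arrays, are cells with acquired resistance to TRAIL, a cytokine related to tumour necrosis factor that can start apoptosis through death receptors, selected by daily subtoxic TRAIL over 6 months. H460S, with 4 arrays, are the TRAIL-sensitive control cells, and both groups were grown in RPMI with fetal bovine serum. The labels do not say whether a group's arrays stem from cultures kept apart or whether H460R is 1 clone, so the spread between arrays may be technical, and resistance cannot be told apart from long TRAIL exposure or time in culture. Levels are log2(signal + 1), and a change is the H460R mean minus the H460S mean on that scale, with the standard error from limma.

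Neighbouring genes share the copy number of their stretch of chromosome and parts of its chromatin surroundings, while promoters and transcript stability belong to each gene. Copy number and chromatin were not measured here. The stretch holds genes with unrelated tasks, among them spindle and centriole proteins, subunits of the PAF1 elongation complex and of the HOPS tethering complex, ubiquitin ligases, and the matrix protein fibrillin-1.

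The arrays of a group correlated with each other at 0.955 to 0.965 on average over all genes, and with the other group at 0.937 to 0.943. The keratin genes KRT8, KRT18 and KRT19, markers of epithelial cells, were above the median probe set level of 5.01, while EPCAM and CDH1 were below it in both groups. Of 11 measured markers of leukocytes, fibroblasts and endothelial cells, CD14, COL1A1, PECAM1 and PDGFRB averaged above that level over the 8 arrays and the others did not. PDGFRB, a fibroblast and pericyte marker, was lower at 4.82 in H460R and 5.94 in H460S (limma adjusted p = 0.0148), and the epithelial marker KRT19 at 11.28 in H460R and 12.52 in H460S (limma adjusted p = 0.000116). The part of other cell types in the changes below was not tested. The 3′ minus 5′ difference of the ACTB control probe sets, a sign of RNA quality and labelling, was 0.11 in H460R and 0.23 in H460S arrays (exact two-sided permutation p = 0.0286, the smallest that 70 assignments can give), and that of GAPDH was -0.13 in H460R and -0.14 in H460S arrays (exact permutation p = 0.686). The part of RNA quality was not tested either.

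Members of the stretch were found on both sides of 0. Of the 59 measured genes, 35 had a lower mean in H460R than in H460S, or 59.3%, where 52.5% of all genes did. After median centring of the arrays, 32 members did. The median change was -0.18, against -0.03 over all 19775 genes. In limma's fit across all genes, 24 members were lower at an adjusted p below 0.05 and 11 were higher, 35 in all, beside 15.6% lower, 14.7% higher and 30.3% in all among the 19775 genes, and 24 did not pass. Because the list was chosen with this contrast in view, nothing is read from those counts.

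**Figure D1:**
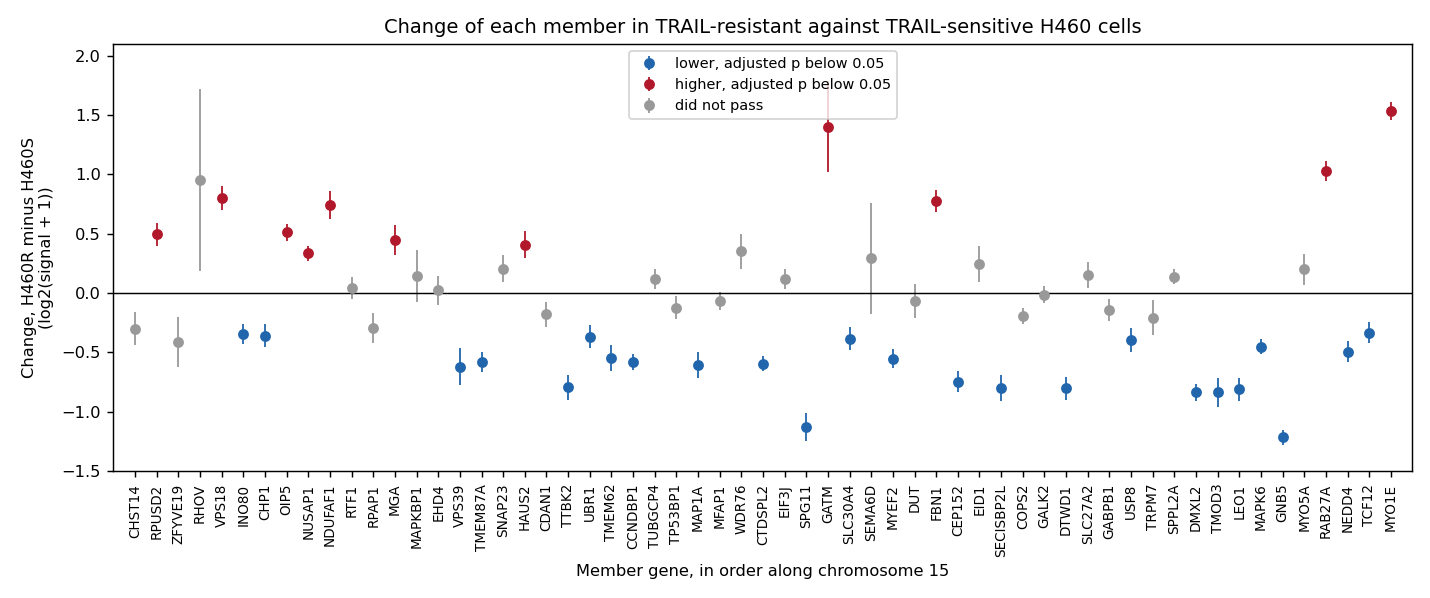
Change of each of the 59 measured members, H460R minus H460S, in log2(signal + 1), in gene order along chromosome 15 from left to right. Points are limma estimates and bars are their standard errors (n = 4 arrays per group), coloured by whether the gene passed at an adjusted p below 0.05. GNB5 at -1.22 and SPG11 at -1.13 are the lowest points and MYO1E at 1.54 the highest.

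Most changes were modest. Only SPG11 and GNB5 were lower by at least 2-fold, and only GATM, RAB27A and MYO1E were higher by as much. All 4 H460R arrays lay below all 4 H460S arrays for 25 members, where 17.4% of all genes did so, and above them for 13 members, where 16.5% of all genes did. For 21 members the groups overlapped. Members were well measured as a rule, with 56 of 59 above the median probe set level. RHOV, GATM and SEMA6D were the dim ones. Among the 11641 genes above that level, 23.9% passed as lower and 23.3% as higher, against 42.9% and 17.9% of the 56 members. The SD between arrays had a median over members of 0.13 in H460R and 0.12 in H460S, and was largest for RHOV, at 1.08 in H460R and 1.28 in H460S. For each array, the median over members of the deviation from a gene's mean over all 8 arrays was taken. It ran from -0.12 to -0.02 in H460R and from 0.08 to 0.11 in H460S. Over all genes the same medians ran from -0.01 to 0.03 in H460R and from 0.01 to 0.08 in H460S. The list was drawn up with this contrast known, so nothing is read from the gap between groups among members. The members' median levels overlapped, at 8.83 to 8.97 in H460R and 8.79 to 8.96 in H460S arrays.

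The 24 exceptions that were not lower ran from RPUSD2 to MYO1E but were not evenly spread. They lay closest together from RPUSD2 to HAUS2, near the CHST14 end of the stretch. Of these, RPUSD2, VPS18, OIP5, NUSAP1, NDUFAF1, MGA, HAUS2, GATM, FBN1, RAB27A and MYO1E were those that passed as higher. The other 13, which did not pass, were RHOV, RTF1, MAPKBP1, EHD4, SNAP23, TUBGCP4, WDR76, EIF3J, SEMA6D, EID1, SLC27A2, SPPL2A and MYO5A, with changes between 0.02 for EHD4 and 0.95 for RHOV. The 11 members that were lower without passing were CHST14, ZFYVE19, RPAP1, CDAN1, TP53BP1, MFAP1, DUT, COPS2, GALK2, GABPB1 and TRPM7, with changes between -0.41 for ZFYVE19 and -0.01 for GALK2.

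Members are taken by role from here on. Each role holds few genes, from a list drawn up with this contrast known, so nothing is read from the counts by role. Among all genes 15.6% passed as lower and 14.7% as higher. Genes of cell division went both ways. Of 6, the higher ones that passed were OIP5, NUSAP1 and HAUS2, and the lower ones CEP152 and TTBK2. TUBGCP4, a subunit of the gamma-tubulin ring complex, stood at 0.12 ± 0.09 (SE), and its next brightest probe set at 0.41 ± 0.12. Standard errors of further probe sets, here and below, come from a separate limma fit over all probe sets. OIP5, a subunit of the Mis18 complex that prepares centromeres for new CENP-A, had levels of 9.38, 9.35, 9.40 and 9.49 in H460R arrays, against 8.79, 8.91, 8.90 and 8.99 in H460S arrays. The groups did not overlap, and the change was 0.51 ± 0.07. Its neighbour NUSAP1, which bundles spindle microtubules, had 11.08, 11.13, 11.18 and 11.12 in H460R arrays, against 10.76, 10.81, 10.75 and 10.85 in H460S arrays. This smaller difference of 0.34 ± 0.06 also left a gap between the groups. HAUS2, an augmin subunit that helps to branch microtubules in the spindle, averaged 8.97 ± 0.07 in H460R and 8.56 ± 0.20 in H460S (SD, n = 4 each). CEP152, a scaffold of centriole duplication, had 7.74, 7.87, 7.81 and 7.67 in H460R arrays, against 8.36, 8.51, 8.54 and 8.66 in H460S arrays, a change of -0.75 ± 0.09. TTBK2, a kinase needed to start primary cilia, had 5.86, 6.17, 5.98 and 6.08 in H460R arrays, against 6.71, 6.69, 6.95 and 6.93 in H460S arrays, a change of -0.79 ± 0.10. All H460R values of these 2 lower genes were below all H460S values.

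OIP5 and NUSAP1 are read in opposite directions from starts that lie 290 bases apart. The 250 bases before the NUSAP1 start, at chr15:41332631-41332880 of GRCh38.p14 and read on the plus strand, are shown because these 2 neighbours were both higher in H460R. Capitals mark matches to the motifs searched.
OIP5 and NUSAP1: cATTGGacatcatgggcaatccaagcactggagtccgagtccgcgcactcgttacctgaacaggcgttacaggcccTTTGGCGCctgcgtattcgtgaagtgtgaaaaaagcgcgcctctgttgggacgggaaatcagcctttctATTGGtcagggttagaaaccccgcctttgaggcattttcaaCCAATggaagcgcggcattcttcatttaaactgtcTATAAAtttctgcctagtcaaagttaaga
The motifs were searched on both strands in RefSeq promoter windows of 300 bases, from 250 bases before to 50 after a start. They were the CCAAT box, the cell cycle element TTTGAA, the E2F-like TTTNNCGC, the ETS-like CCGGAAGT, the NRF1 palindrome and the TATA box TATAAA. The printed stretch holds CCAAT as spelled 64 bases before the NUSAP1 start and its reverse complement 105 and 249 bases before, TTTNNCGC 174 bases before and TATAAA 29 bases before. None of these matches overlaps another. Among all 35116 windows, CCAAT occurs in 34.6%, TTTGAA in 15.2%, TTTNNCGC in 6.89%, CCGGAAGT in 4.14%, the NRF1 palindrome in 5.78% and TATAAA in 11.5%. Of the 73 windows of the 51 members with an entry, 24 held CCAAT, 8 TTTGAA, 16 TTTNNCGC, 2 CCGGAAGT, 9 the NRF1 palindrome and 4 TATAAA. Member windows had a median of 23 CG dinucleotides and 62.0% G and C, and all windows 14 and 58.7%. A match is only a run of letters and not a bound site.

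Of 5 members of DNA metabolism, repair and chromatin remodelling, only INO80, the ATPase of a remodelling complex, passed. It was lower at 9.16 ± 0.06 in H460R and 9.51 ± 0.13 in H460S (SD, n = 4 each). TP53BP1, which steers the choice of pathway at double-strand breaks, had 8.98, 8.82, 8.62 and 8.91 in H460R arrays, against 8.996, 8.85, 8.99 and 8.99 in H460S arrays, so the groups overlapped. Its next probe sets by level disagreed, with -0.67 ± 0.10, 0.17 ± 0.13 and -0.04 ± 0.21 (SE). DUT, the enzyme that removes dUTP before it enters DNA, averaged 12.54 ± 0.10 in H460R and 12.61 ± 0.27 in H460S. The other DUT probe sets stood at 0.04 ± 0.09 and -0.33 ± 0.09 (SE). The WD-repeat gene WDR76 stood at 0.35 ± 0.15, with all H460R arrays above all H460S arrays, and did not pass. CDAN1, which encodes codanin-1, stood at -0.18 ± 0.11.

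Among 9 transcription genes, 4 passed as lower and 1 as higher, with a median change of -0.30. LEO1, a subunit of the PAF1 complex that travels with RNA polymerase II, had 9.26, 8.98, 8.996 and 8.96 in H460R arrays, against 9.92, 9.72, 9.93 and 9.87 in H460S arrays, a change of -0.81 ± 0.10. RTF1, encoded by the same stretch and working with the same complex, had 9.12, 9.14, 9.11 and 8.87 in H460R arrays, against 8.87, 9.12, 9.07 and 8.999 in H460S arrays. LEO1 thus separated the groups by more than their spread and RTF1 did not, with its change at 0.04 ± 0.09. CCNDBP1, which binds cyclin D1, averaged 8.999 ± 0.07 in H460R and 9.58 ± 0.03 in H460S (SD, n = 4 each), and the phosphatase-like gene CTDSPL2 9.83 ± 0.02 in H460R and 10.43 ± 0.06 in H460S. TCF12, a basic helix-loop-helix factor, passed at -0.33 ± 0.09 by its brightest probe set. MGA, a dimerisation partner of MAX, was the higher one at 0.45 ± 0.13. RPAP1, which binds RNA polymerase II, GABPB1, a subunit of the ETS factor GABP, and EID1, an inhibitor of the acetyltransferase EP300, did not pass, with -0.30 ± 0.12, -0.14 ± 0.09 and 0.25 ± 0.15.

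In RNA processing and translation, 3 of 6 genes passed as lower. DTWD1, which modifies uridines of transfer RNAs, had 7.89, 7.91, 8.17 and 7.89 in H460R arrays, against 8.62, 8.86, 8.78 and 8.82 in H460S arrays, a change of -0.80 ± 0.10. SECISBP2L, a relative of the selenocysteine factor SECISBP2, had 7.95, 8.21, 7.87 and 8.12 in H460R arrays, against 8.89, 8.99, 8.77 and 8.69 in H460S arrays, again a change of -0.80. Both genes kept a gap between groups wider than the spread within either. MYEF2, known in mouse as a repressor of the myelin basic protein gene, changed by -0.55 ± 0.08. RPUSD2, a pseudouridine synthase, was the higher one at 0.49 ± 0.10. The spliceosome gene MFAP1 and the translation initiation gene EIF3J stood at -0.07 ± 0.07 and 0.12 ± 0.08.

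Each of the 4 members of ubiquitin and related pathways had all H460R arrays below all H460S arrays, and 3 passed. Of all genes 17.4% had such a gap and 15.6% passed as lower. These are 4 genes of a list drawn up with this contrast known, so nothing is read from the count. NEDD4, a HECT ubiquitin ligase, had 9.87, 9.80, 9.80 and 9.57 in H460R arrays, against 10.33, 10.21, 10.27 and 10.20 in H460S arrays, a change of -0.49 ± 0.09. UBR1, the ligase of the N-degron pathway, averaged 9.03 ± 0.14 in H460R and 9.39 ± 0.10 in H460S, and USP8, a deubiquitinase of endosomes, 9.01 ± 0.15 in H460R and 9.40 ± 0.11 in H460S (SD, n = 4 each). COPS2, a subunit of the COP9 signalosome, did not pass at -0.19 ± 0.07.

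**Figure D2:**
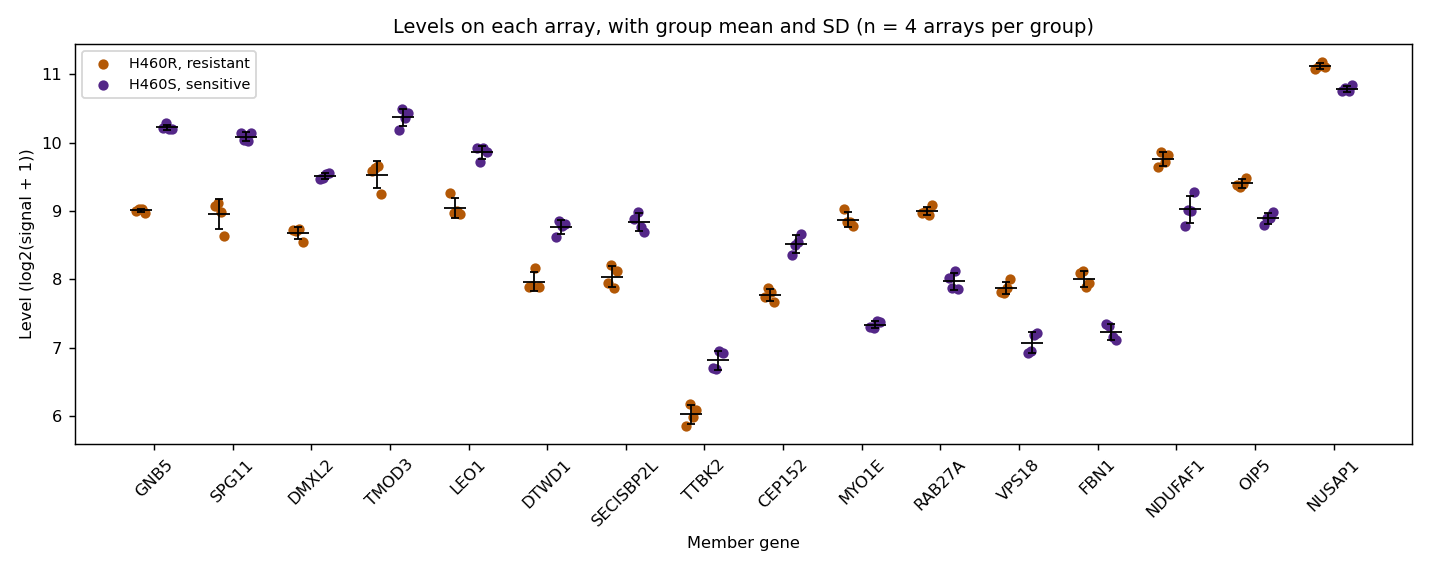
Level of 16 members on every array in log2(signal + 1), with H460R to the left of H460S for each gene. Points are single arrays and bars the group mean and SD (n = 4 each). The 9 genes on the left are lower in H460R and the 7 on the right higher, and the groups of these 16 genes do not overlap.

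Genes of membrane traffic, the lysosome and organelle transport split, with 4 of 11 passing as lower and 2 as higher. SPG11, which encodes spatacsin and is needed to re-form lysosomes, had 9.08, 9.12, 8.98 and 8.64 in H460R arrays, against 10.14, 10.04, 10.02 and 10.14 in H460S arrays. Its change of -1.13 ± 0.12 made H460S 2.19-fold higher. DMXL2, a rabconnectin that takes part in assembling the vacuolar proton pump, had 8.73, 8.71, 8.74 and 8.55 in H460R arrays, against 9.47, 9.48, 9.55 and 9.56 in H460S arrays, a change of -0.83 ± 0.07. TMEM87A, a Golgi membrane protein gene, changed by -0.58 ± 0.09. RAB27A, a small GTPase that brings secretory vesicles and exosome precursors to the plasma membrane, went the other way, with 8.97, 8.99, 8.95 and 9.09 in H460R arrays, against 8.02, 7.87, 8.13 and 7.86 in H460S arrays. It was 2.04-fold higher in H460R, a change of 1.03 ± 0.09. VPS18 and VPS39, which serve in the same tethering complex before lysosomal fusion, moved apart. VPS18 had 7.82, 7.80, 7.87 and 8.01 in H460R arrays, against 6.92, 6.96, 7.19 and 7.22 in H460S arrays. VPS39 had 7.77, 7.83, 7.40 and 7.45 in H460R arrays, against 8.48, 7.92, 8.22 and 8.32 in H460S arrays. Neither gene's groups overlapped, and the changes were 0.80 ± 0.10 and -0.62 ± 0.16. The vesicle fusion gene SNAP23, the endosomal gene EHD4, the protease gene SPPL2A, the motor gene MYO5A and ZFYVE19, which acts in the abscission checkpoint, did not pass.

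All 4 genes of the cytoskeleton and matrix passed, in both directions, where 30.3% of all genes passed. MYO1E, a class I myosin at the cell edge, had 9.03, 8.84, 8.84 and 8.79 in H460R arrays, against 7.30, 7.28, 7.39 and 7.37 in H460S arrays. That made it the member with the largest change, 1.54 ± 0.08, or 2.90-fold. FBN1, the microfibril protein fibrillin-1, had 8.09, 8.13, 7.88 and 7.94 in H460R arrays, against 7.35, 7.32, 7.15 and 7.11 in H460S arrays, a change of 0.78 ± 0.09. TMOD3, which caps the slow-growing ends of actin filaments, had 9.59, 9.63, 9.67 and 9.25 in H460R arrays, against 10.19, 10.49, 10.36 and 10.44 in H460S arrays, a change of -0.84 ± 0.12. MAP1A, a microtubule-associated protein gene, changed by -0.61 ± 0.11 on its brightest probe set.

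Among 7 signalling genes 3 passed, each lower, where 15.6% of all genes passed as lower. GNB5, a G protein beta subunit that pairs with certain RGS proteins, had 9.01, 9.02, 9.04 and 8.98 in H460R arrays, against 10.21, 10.29, 10.20 and 10.21 in H460S arrays. Its change of -1.22 ± 0.06 was the largest fall among members, and H460S was 2.32-fold higher. MAPK6, the atypical kinase ERK3, had 11.31, 11.25, 11.23 and 11.35 in H460R arrays, against 11.73, 11.73, 11.71 and 11.79 in H460S arrays, a change of -0.45 ± 0.06. CHP1, a calcium-binding partner of sodium-proton exchangers, changed by -0.36 ± 0.10. TRPM7, a cation channel fused to a kinase, had 7.94, 7.60, 7.35 and 7.95 in H460R arrays, against 7.91, 8.01, 7.90 and 7.86 in H460S arrays, and its groups overlapped. MAPKBP1 did not pass, nor did the dim genes RHOV and SEMA6D, the second of which encodes a semaphorin.

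Metabolic, transport and mitochondrial genes were mixed, with 2 of 6 passing as higher and 1 as lower. NDUFAF1, an assembly factor of respiratory complex I, had 9.65, 9.87, 9.73 and 9.83 in H460R arrays, against 8.79, 9.02, 9.002 and 9.29 in H460S arrays, a change of 0.74 ± 0.12. GATM, the first enzyme of creatine synthesis, had 4.83, 5.08, 4.46 and 5.05 in H460R arrays, against 3.10, 2.50, 4.15 and 4.04 in H460S arrays. Both group means lay below the median probe set level, so its change of 1.40 ± 0.39 rests on dim signals. The zinc transporter gene SLC30A4 changed by -0.39 ± 0.10. GALK2, a galactosamine kinase, had 8.85, 9.02, 8.90 and 8.94 in H460R arrays, against 8.87, 8.99, 8.99 and 8.92 in H460S arrays, with no separation. SLC27A2, a fatty acid transporter and acyl-CoA synthetase, and CHST14, a dermatan sulfotransferase, did not pass, with 0.15 ± 0.11 and -0.30 ± 0.14. TMEM62, which was given no role here, passed at -0.55 ± 0.11.

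Of the 35 members that passed, 25 also passed in every one of 8 fits that left out an array. The like share over all genes is not given here, so nothing is read from that count. The 10 that did not always pass were INO80, CHP1, MGA, VPS39, HAUS2, UBR1, GATM, SLC30A4, USP8 and TCF12. Of these, HAUS2 lost its call without any of 7 arrays, H460S array 3 being the exception, with changes between 0.35 and 0.44. Leaving out H460S array 1 and H460R array 4 together, which was chosen after the data were seen, left 18 members lower and 11 higher. Of all 19775 genes, 2868 passed as lower and 2668 as higher in that fit.

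Along the list, with unlisted genes skipped, members of like sign formed short runs, the longest of 5 genes. The run DMXL2, TMOD3, LEO1, MAPK6 and GNB5 had changes between -1.22 and -0.45, and each of its 5 genes passed. Among these genes lie the unlisted SCG3 at 0.08, LYSMD2 at 0.10 and BCL2L10 at 0.56, none of which passed, so the run is broken when all measured genes are counted. SCG3 and BCL2L10 were below the median probe set level. With only genes above that level counted, TMOD3 to MYO5C formed a run of 5 lower genes, and all 5 passed. The run CDAN1, TTBK2, UBR1, TMEM62 and CCNDBP1 had changes between -0.79 and -0.18, and 4 passed. A run of 4 higher genes, OIP5, NUSAP1, NDUFAF1 and RTF1, lay nearer the start of the stretch, with changes between 0.04 and 0.74, of which 3 passed. Over all measured genes of the interval the longest run was one of 7 lower genes from STARD9 to EPB42, with changes between -0.80 and -0.18, of which 5 passed. Over those above the median probe set level it was one of 8 lower genes from PYGO1 to MYZAP. Their changes lay between -1.14 and -0.04, and 5 passed.

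Genes of the interval that are not on the list had a lower mean in H460R in a share near that of the members. Fewer of them passed as lower, 21.4% against 40.7%, but more of them were dim. Above the median probe set level 37.5% of the unlisted genes and 42.9% of the members passed as lower. Between CHST14 and MYO1E the RefSeq order holds 162 measured genes, of which 103 are not members. Of these, 65 had a lower mean in H460R, or 63.1%, 22 passed as lower and 7 as higher, and the median change was -0.22. Of the 103, 56 were above the median probe set level, with a median change of -0.30, 21 passing as lower and 6 as higher. Among the 60 measured genes before the interval, 8 passed as lower and 7 as higher, with a median change of 0.08. Of the 60 after it, 10 passed as lower and 9 as higher, with a median change of -0.04. The rest of chromosome 15, 450 genes, had a median change of -0.10, with 56.9% below 0 and 88 passing as lower and 48 as higher. Above the median probe set level the share below 0 was 62.5% of 56 members, 67.9% of 56 unlisted genes, 47.1% of 34 genes before, 55.0% of 40 genes after and 61.5% of 265 genes of the rest of the chromosome. In that last set 81 passed as lower and 43 as higher, or 30.6% and 16.2%, with a median change of -0.13. Of the 56 members above that level 42.9% passed as lower and 17.9% as higher, with a median change of -0.20. The members' share below 0 was thus close to that of the rest of chromosome 15. Their share passing as lower was larger, in a list drawn up with this contrast known. These sets were compared by description only. The 7 higher calls among unlisted genes became 4 without H460R array 2 or without H460R array 4.

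The unlisted genes with the largest falls among those that passed with no overlap were CHAC1, GLDN, GCHFR, MYO5C and CCPG1. CHAC1, a glutathione-degrading enzyme induced by ATF4, averaged 5.48 in H460R and 7.99 in H460S, a change of -2.50 ± 0.18 (limma adjusted p = 8.17e-05). GLDN, which encodes gliomedin, changed by -1.85 ± 0.16 (limma adjusted p = 0.00019), and MYO5C, a class V myosin next to MYO5A, by -1.20 ± 0.13 (limma adjusted p = 0.000415). GCHFR, a regulator of the enzyme that starts tetrahydrobiopterin synthesis, changed by -1.24 ± 0.20, and CCPG1, an autophagy receptor of the endoplasmic reticulum, by -1.18 ± 0.18. The largest rises were those of AFG2B, ATP8B4, HMGN2P46, ARPP19 and COXFA4L3. AFG2B, an AAA ATPase of ribosome maturation, averaged 10.36 in H460R and 9.55 in H460S, a change of 0.81 ± 0.08 (limma adjusted p = 0.000371). ARPP19, an inhibitor of the phosphatase PP2A at mitotic entry, rose by 0.45 ± 0.06 (limma adjusted p = 0.00164). ATP8B4 rose by 0.63 ± 0.17, the pseudogene HMGN2P46 by 0.55 ± 0.16 and COXFA4L3 by 0.41 ± 0.09. The calls of ATP8B4 and HMGN2P46 were each lost without any of 5 of the 8 arrays.

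**Figure D3:**
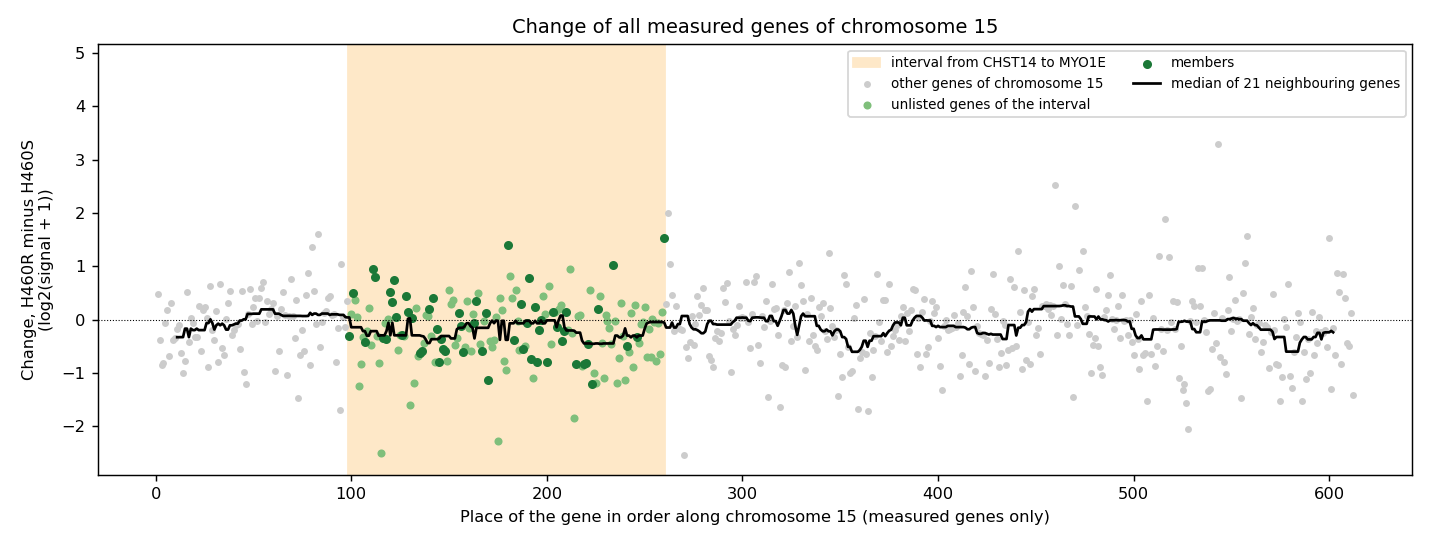
Change of the 612 measured genes of chromosome 15, H460R minus H460S in log2(signal + 1), against their place in gene order, with the interval from CHST14 to MYO1E shaded. The line is the running median of 21 neighbouring genes, which reaches -0.45 at GNB5 within the interval and -0.60 farther along the chromosome.

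The running median of 21 neighbouring genes was below 0 in 157 of the 162 windows centred in the interval and in 290 of the 430 windows centred elsewhere on chromosome 15. It was lowest in the interval at -0.45, in the window centred on GNB5, and highest at 0.08. Elsewhere on the chromosome it ranged from -0.60 to 0.27, so the interval did not hold the lowest windows of chromosome 15. Windows overlap and share genes, and these counts are a description.

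In 11 pairs of measured genes that include a member, the closest starts face away from each other at most 1000 bases apart. Only genes with a promoter window could form a pair, and 51 of the 59 members had one. The changes had the same sign in 6 pairs and opposite signs in 5. OIP5 and NUSAP1, both higher, were the only pair in which both genes passed. In no pair did both pass with opposite signs. Several of the other changes by the brightest probe set lay within their standard error, such as EHD4 at 0.02 ± 0.12 and EIF3J-DT at -0.02 ± 0.16. The next EHD4 probe sets by level stood at 0.37 ± 0.10, 0.57 ± 0.28 and 1.05 ± 0.34, so its change depends on the probe set. TP53BP1 and MAP1A, with their closest starts 314 bases apart, stood at -0.12 ± 0.10 and -0.61 ± 0.11. RAB27A rose by 1.03, while PIGB, which adds a mannose to glycosylphosphatidylinositol anchors, stood at -0.02 ± 0.09. PIGB starts 99 bases from the closest of several RAB27A starts. MAP1A has a further start as well, and the arrays do not show which start of a gene was used. HAUS2 rose by 0.41, while LRRC57, 45 bases away, stood at -0.31 and did not pass. The sequences between the starts are shown for these 3 pairs, on the plus strand of GRCh38.p14, with the same motifs in capitals. They are the 250 bases before the MAP1A start at chr15:43510704-43510953, the 98 bases between RAB27A and PIGB at chr15:55319124-55319221 and the 44 bases between LRRC57 and HAUS2 at chr15:42548794-42548837.
TP53BP1 and MAP1A: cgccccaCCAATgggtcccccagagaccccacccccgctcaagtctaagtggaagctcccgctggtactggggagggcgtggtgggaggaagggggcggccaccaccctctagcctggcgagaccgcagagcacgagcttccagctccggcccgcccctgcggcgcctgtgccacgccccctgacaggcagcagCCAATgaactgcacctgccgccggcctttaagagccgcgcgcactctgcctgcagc
RAB27A and PIGB: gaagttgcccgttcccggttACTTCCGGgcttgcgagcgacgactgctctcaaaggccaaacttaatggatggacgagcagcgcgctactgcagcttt
LRRC57 and HAUS2: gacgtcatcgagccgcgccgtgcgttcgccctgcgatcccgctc
The first holds CCAAT 243 and 56 bases before the MAP1A start. The second holds the reverse complement of CCGGAAGT 78 bases before the PIGB start. In the third none of the searched motifs occurs in these letters.

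Most members were measured by several probe sets, which gave a view of how far a change depended on the one used. The 59 members had 174 probe sets, and 13 members had 1 only. A further probe set brighter than the median level existed for 39 members, of which 31 had all such probe sets on the same side of 0 as the brightest. The 8 with a disagreement were SNAP23, TP53BP1, DUT, EID1, GABPB1, TRPM7, MYO5A and TCF12. In 22 of 23 members that passed and had such a second probe set, the next brightest agreed in sign, and the exception was TCF12. Its 3 other probe sets above that level stood at 0.37, 0.41 and 0.57, against -0.33 for the brightest, so its direction is uncertain. For GNB5 the next 3 probe sets gave -1.23, -1.71 and -1.15, and for RAB27A 1.09, 0.85 and 0.71. SPG11 gave -0.43 and -0.59 on its next 2, smaller than the -1.13 of the brightest. MAP1A had 2 further probe sets, both below the median level, at 0.45 and 0.82.

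**Figure D4:**
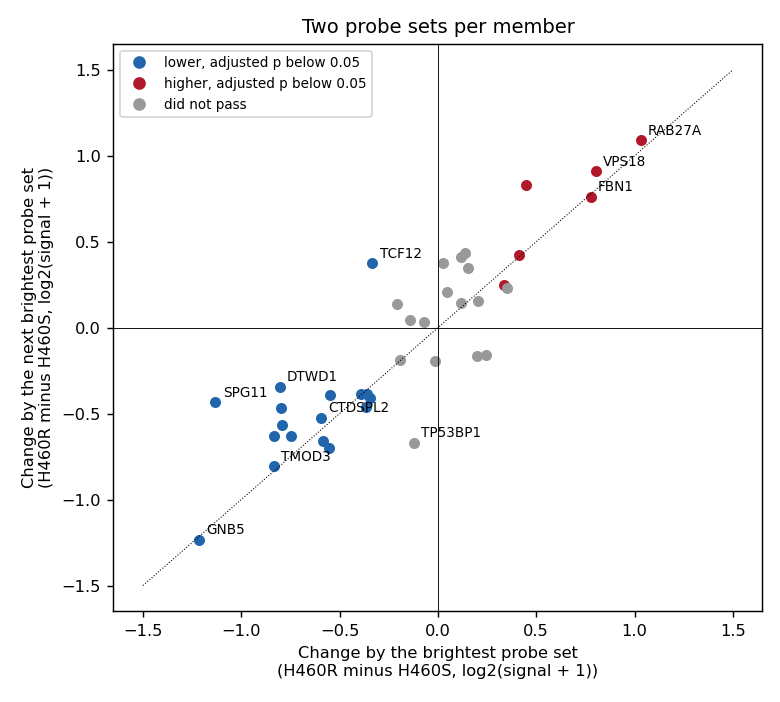
Change by the brightest probe set (horizontal) against the next brightest (vertical) for 39 members with a second probe set above the median level, both H460R minus H460S in log2(signal + 1). The dotted line marks equal changes, and colours show whether the brightest probe set passed. TCF12 is the one coloured point whose 2 probe sets lie on opposite sides of 0.

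Subunits of the members' complexes that are encoded outside the interval did not follow the members in common. Of 57 subunits listed for 8 complexes, 55 were measured and none lies in the interval. The median change was 0.05, and 7 passed as lower and 14 as higher, or 12.7% and 25.5%, beside 15.6% and 14.7% of all genes. All 55 were above the median probe set level, where 23.9% of genes passed as lower and 23.3% as higher. Beside those genes the share of partners passing as higher was near, and the share passing as lower was smaller. The count of 21 fell to 13 without H460R array 1, without H460R array 2 or without H460S array 4. In the PAF1 complex, CDC73 fell like LEO1, by 0.48 ± 0.07 (limma adjusted p = 0.00251), PAF1 rose by 0.32 ± 0.08 (limma adjusted p = 0.0211), and CTR9 and SKIC8 did not pass. The call of PAF1 was lost without any of 4 arrays. Around VPS18 and VPS39, VPS33A rose by 0.59 ± 0.09 (limma adjusted p = 0.00208) and TGFBRAP1 by 0.36 ± 0.06 (limma adjusted p = 0.00302), VPS8 changed by -0.57 ± 0.10 (limma adjusted p = 0.00469), and VPS11, VPS16 and VPS41 did not pass.

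In augmin, 4 of 6 measured partners of HAUS2 rose and none fell at that threshold: HAUS1 by 0.58 ± 0.13 (limma adjusted p = 0.0147), HAUS7 by 0.39 ± 0.11, HAUS3 by 0.31 ± 0.09 and HAUS8 by 0.25 ± 0.07. The calls of HAUS3, HAUS7 and HAUS8 were lost without any of 6, 6 and 7 arrays. In the gamma-tubulin ring complex, where TUBGCP4 did not pass, NEDD1, which targets the complex to the spindle, changed by -1.31 ± 0.08 (limma adjusted p = 4.68e-05), while gamma-tubulin itself, TUBG1, rose by 0.82 ± 0.07 (limma adjusted p = 0.000169). MIS18A, the measured partner of OIP5, stood at 0.49 ± 0.25 and did not pass (limma adjusted p = 0.187). In the COP9 signalosome COPS3 and COPS5 rose by 0.59 ± 0.06 and 0.63 ± 0.09, and COPS8 and COPS7B were lower at -0.42 ± 0.07 and -0.43 ± 0.13, of which COPS7B lost its call without any of 6 arrays. INO80C and INO80E rose by 0.75 ± 0.12 and 0.50 ± 0.11 while INO80 itself was lower, and the other 10 measured partners of INO80 did not pass. Of 12 subunits of the initiation factor eIF3, 2 rose, 2 fell and 8 did not pass, and each of the 4 calls was lost without any of 4 to 7 arrays.

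**Figure D5:**
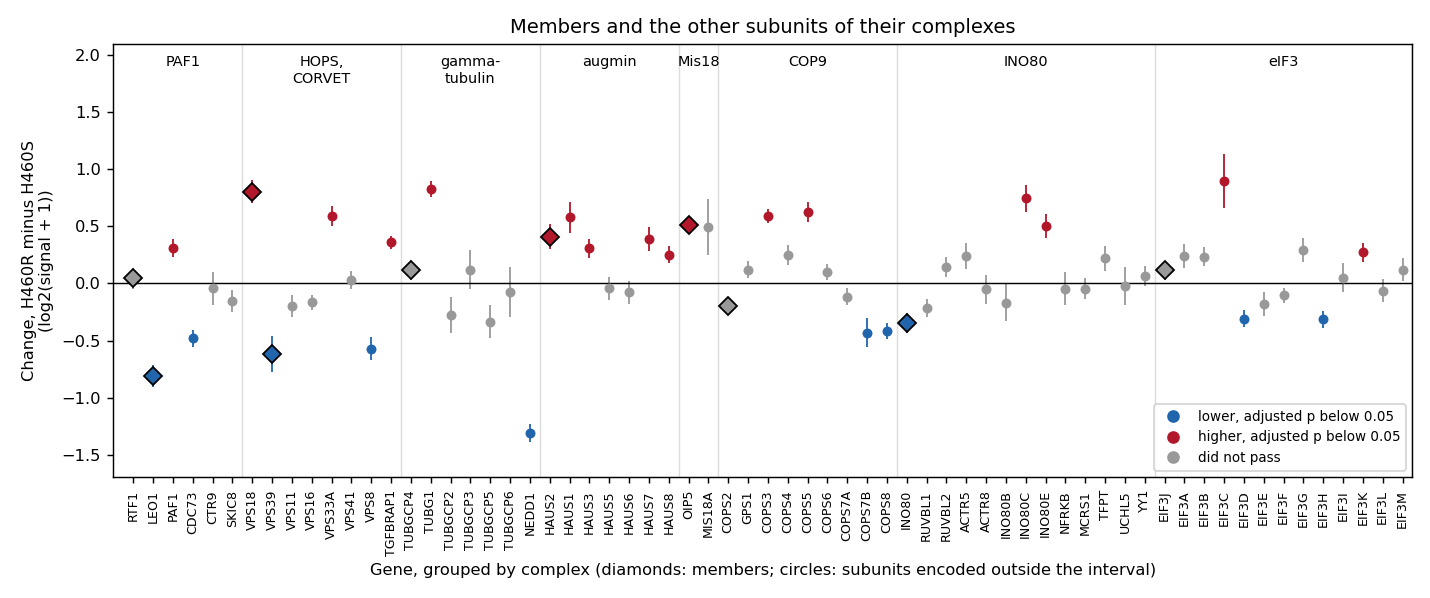
Change of members (diamonds) and of subunits of the same complexes encoded outside the interval (circles), H460R minus H460S in log2(signal + 1), with standard errors from limma (n = 4 arrays per group). Colours show whether a gene passed at an adjusted p below 0.05. Among genes that passed, members included, both directions occur within the PAF1, HOPS and CORVET, gamma-tubulin, COP9, INO80 and eIF3 sets.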

How the data were processed

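The authors deposited linear intensity signals of 54675 probe sets, 62 of them controls, on 8 arrays. Per the submitters' processing notes the tool was RMA, with no version given, but the deposited intensity values are linear, reach below 1 and have a mean of 200 on every array after trimming 2% at each end, so the step that made them is not settled. Such scaling hides a change in total RNA per cell. Signals were taken as log2(signal + 1), which understates changes of dim genes. Names came from the platform annotation (41097 probe sets with 1 symbol, 1801 with several, which were not used, and 11777 not listed), updated through gene identifiers to RefSeq GRCh38.p14, which served only for names, gene order and promoter sequences. Where a gene had several probe sets, the one brightest on average across the 8 arrays stood for it.

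H460R and H460S, 4 arrays each, were compared across 19775 genes in R 4.3.3 with limma 3.58.1 (lmFit, eBayes, Benjamini-Hochberg), without a replicate block. Arrays have no read depth, and their number limits precision. The fit was tested on simulated data for H460R against H460S, drawn from the observed level and variance of each of 19775 genes. Only 200 genes were changed, each above the median probe set level and each lowered in H460R. The fit recovered 49.3% of those changed 1.5-fold, 76.1% changed 2-fold and 93.9% changed 4-fold, with 10 false calls. In the real data 5986 genes passed, so these rates hold for the simulated setting only and not for dim genes. Standard errors of a member's further probe sets came from a separate limma fit over all probe sets other than controls. For the brightest TUBGCP4 probe set that fit gave 0.1003, against 0.0857 in the fit across genes. Exact permutation tests used scipy 1.17.1. Alternatives comprised a replicate block, quantile normalization, median centring, a pseudocount of 16, a filter on dim probe sets, other choices of probe set, an intensity trend with a robust prior and leaving out arrays. The members, lists and naming rule were chosen with earlier results of these data known. All members and listed complex partners could be named, and of unlisted interval genes the 5 largest falls and 5 largest rises among those that passed without overlap.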

Additional observations from a re-analysis of the deposited data

Results flagged for a closer look

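In 18 of 248 groups of 4 arrays examined, over members, the named unlisted genes and the complex partners, 1 array stood far from the other 3. Chance gives about 1 in 20 such groups. Among members these were 8 of 118 groups. In H460R, RTF1 was 8.87 on array 4, against 9.11 to 9.14 on the others, DTWD1 was 8.17 on array 3, against 7.89 to 7.91, and LEO1 was 9.26 on array 1, against 8.96 to 8.996. In H460S, RPUSD2 was 7.45 on array 2, against 7.24 to 7.27, INO80 was 9.32 on array 3, against 9.55 to 9.60, and TP53BP1 was 8.85 on array 2, against 8.99 to 8.996. DUT was 12.20 and MFAP1 9.94 on H460S array 1, against 12.72 to 12.77 and 10.04 to 10.05 on the others.

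Among the other genes, H460R array 4 was high for GPS1 (9.92), COPS6 (11.67), YY1 (11.75) and EIF3K (12.16), and H460R array 1 for ARPP19 (11.61). H460S array 1 was low for HAUS1 (9.31) and high for VPS8 (7.74). VPS11 was low on H460S array 2 (6.77), VPS16 low on array 4 (8.60) and INO80B high on array 3 (7.83). H460R array 4 accounted for 5 of the 18 and H460S array 1 for 4.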

How the results depend on the processing

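The number of members lower in H460R was 34 to 37 with any array left out, 32 after median centring and 29 of the 52 members that keep a probe set once those named as cross-hybridising are dropped. Their median change lay between -0.21 and -0.12 with any array left out and was -0.11 after median centring, where the median of all genes was 0.04. Leaving out each array gave 28 to 32 members passing, 19 to 22 lower and 8 to 11 higher. Of all 19775 genes, 4928 to 5776 passed in these fits. The unlisted genes passing numbered 22 to 26, 4 to 6 of them higher, and the complex partners 13 to 20. Unlisted genes passing as higher were 4 both with the mean of probe sets and without suffixed probe sets. With the mean of probe sets MAP1A turned to 0.22, TCF12 to 0.26, VPS8 to 0.0019 and COPS8 to 0.0418. Without suffixed probe sets COPS7B turned to 0.31 and EIF3A to -0.39. The cause was not tested. Arrays of the same number did not deviate together (correlations of -0.03 to 0.01). With the replicate block, which takes degrees of freedom from the fit, 4356 genes passed in place of 5986, 18 members lower and 7 higher, and 11 partners. The ACTB difference was -0.125 to -0.115 when leaving out each array, at p = 0.0571 (exact permutation), the smallest that 35 assignments allow, and that of GAPDH -0.0074 to 0.0458. Of the 35 members called, 17 passed in every alternative that tested them, 11 lower and 6 higher. The like share over all genes is not given here. Low signal limits RHOV, GATM and SEMA6D.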
